A study of Homo sapiens with 12 samples.

Results

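The E2F and DP family was followed through a synchronized cell cycle in HCT116, a human colorectal carcinoma cell line that is one line grown in culture. The members are E2F1 to E2F8 and the partner genes TFDP1 and TFDP2, 10 genes of the 19775 that have a probe set annotated to 1 gene symbol alone on the Affymetrix U133 Plus 2.0 array. They hold 22 of the 54675 probe sets. All cultures passed a double block with 2 mM thymidine, which stops cells at the start of S phase, were washed, and were released into medium with DMSO or with 0.1 mg/ml nocodazole. With DMSO, arrays were taken at 0, 2, 4 and 6 h and then hourly from 7 to 10 h. With nocodazole, which keeps microtubules from forming a spindle, they were taken hourly from 7 to 10 h, with 1 array per condition and 12 arrays in all. No condition was repeated, so neighbouring hours stand in for replicates and p-values measure the spread between hours, not between cultures.

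E2F proteins bind DNA at genes for DNA replication and for entry into S phase. E2F1, E2F2 and E2F3 are called activators: once cyclin dependent kinases phosphorylate the retinoblastoma protein, they are freed from it and switch their targets on. E2F4 and E2F5 act mostly as repressors together with the pocket proteins RBL1 and RBL2, and E2F6 represses without pocket proteins, in a Polycomb complex. E2F7 and E2F8, the atypical E2Fs, need no DP partner, repress E2F targets late in S phase, and are themselves targets of the activators. TFDP1 and TFDP2 encode the DP subunits that pair with E2F1 to E2F6 to bind DNA.

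The promoters of the activators and of E2F7 are shown because these genes are regulated by E2F proteins themselves. RefSeq promoter windows of 300 bases (250 before to 50 after the start, GRCh38.p14) were found for 8 of the 10 members, 11 windows in all, and no window of E2F5 or E2F8 was used here. Each is written 5′ to 3′ on the strand of its gene, with capitals marking the E2F consensus in any of its forms TTTCCCGC, TTTCGCGC, TTTGCCGC and TTTGGCGC on either strand. The windows of E2F1 (chr20:33686336-33686635, minus strand), E2F2 (chr1:23531184-23531483, minus strand), E2F3 (chr6:20401629-20401928, plus strand) and E2F7 (chr12:77065520-77065819, minus strand) read as follows.
E2F1: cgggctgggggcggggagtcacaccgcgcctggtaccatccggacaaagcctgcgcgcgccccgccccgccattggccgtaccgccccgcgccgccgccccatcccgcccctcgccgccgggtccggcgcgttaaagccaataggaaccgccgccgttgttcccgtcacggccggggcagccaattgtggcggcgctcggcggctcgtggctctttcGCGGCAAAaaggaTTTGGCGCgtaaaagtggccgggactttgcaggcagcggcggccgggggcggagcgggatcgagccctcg
E2F2: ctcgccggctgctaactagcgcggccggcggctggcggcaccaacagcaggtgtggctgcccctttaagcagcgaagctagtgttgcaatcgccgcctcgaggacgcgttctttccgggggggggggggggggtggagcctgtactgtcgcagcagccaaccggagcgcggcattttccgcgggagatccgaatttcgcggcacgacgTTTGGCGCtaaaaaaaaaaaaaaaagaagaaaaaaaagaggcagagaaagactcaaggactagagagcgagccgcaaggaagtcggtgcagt
E2F3: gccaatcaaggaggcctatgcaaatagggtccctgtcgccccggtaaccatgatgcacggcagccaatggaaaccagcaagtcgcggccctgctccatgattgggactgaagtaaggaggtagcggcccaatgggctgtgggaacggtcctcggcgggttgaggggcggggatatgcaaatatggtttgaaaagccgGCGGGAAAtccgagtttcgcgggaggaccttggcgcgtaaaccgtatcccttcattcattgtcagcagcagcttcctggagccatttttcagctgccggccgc
E2F7: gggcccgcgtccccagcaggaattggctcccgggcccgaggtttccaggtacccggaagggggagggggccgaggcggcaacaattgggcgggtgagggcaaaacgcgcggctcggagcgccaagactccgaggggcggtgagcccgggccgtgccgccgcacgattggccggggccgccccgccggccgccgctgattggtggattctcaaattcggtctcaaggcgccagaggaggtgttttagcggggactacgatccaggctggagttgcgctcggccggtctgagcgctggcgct

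The consensus was present in the window printed for each of the 3 activators. E2F3 had another window, at chr6:20403364-20403663, that held neither the consensus nor either of the other motifs searched. E2F1 held it at 2 places, with first bases at positions -33 and -20 from the start, E2F2 at -42 and E2F3 at -53. TFDP1 held it at -120, and the windows of E2F4, E2F6, E2F7 and TFDP2 did not contain these letters. Of all 35116 promoter windows of this length 3.31% held the consensus, and of the G1/S genes listed below 17 of 30 with a window did. The CCAAT box, searched as CCAAT on both strands, occurred at 3 places in E2F1, 4 in E2F3, 4 in E2F7 and 2 in TFDP2. It was held by 34.6% of all windows. The cell cycle homology region, searched as TTTGAA, was found in the windows of E2F3 and TFDP2 and in 15.2% of all windows. These matches describe the letters only. No binding was measured here.

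Values are deposited log2 GC-RMA signals, so a difference of 1 is a doubling of signal, and levels of different probe sets cannot be set against each other. Of the 22 member probe sets 15 reached a log2 signal of 5 on at least 2 of the 12 arrays, and the other 7 stayed below 5 on all 12 arrays. Each gene was represented by its kept probe set of highest mean, and all 10 members were among the 9130 genes tested. The cells carried the epithelial markers EPCAM (13.94 to 14.36 over the 12 arrays), CDH1 (10.39 to 11.16), KRT8, KRT18 and KRT19, while PTPRC, PECAM1, COL1A2 and PDGFRB stayed under 5 on every array. The fibroblast marker COL1A1 read 7.75 to 8.60. The G2 and mitosis gene CCNB1 read 12.01 at 0 h, 13.91 at 8 h and 13.54 at 10 h with DMSO, and 13.83 at 10 h with nocodazole. Array medians ran from 8.59 to 9.13 with DMSO and were 8.90, 8.99, 8.39 and 8.28 at 7, 8, 9 and 10 h with nocodazole, so the tests were repeated after quantile normalization over the 12 arrays. The DMSO array at 4 h stood apart in its ribosomal RNA control probe sets, with a mean of 8.32 against 3.55 to 4.05 on the other DMSO arrays. Results of members that change without it are named below, and its part in the others was not tested beyond leaving it out.

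**Figure D1:**
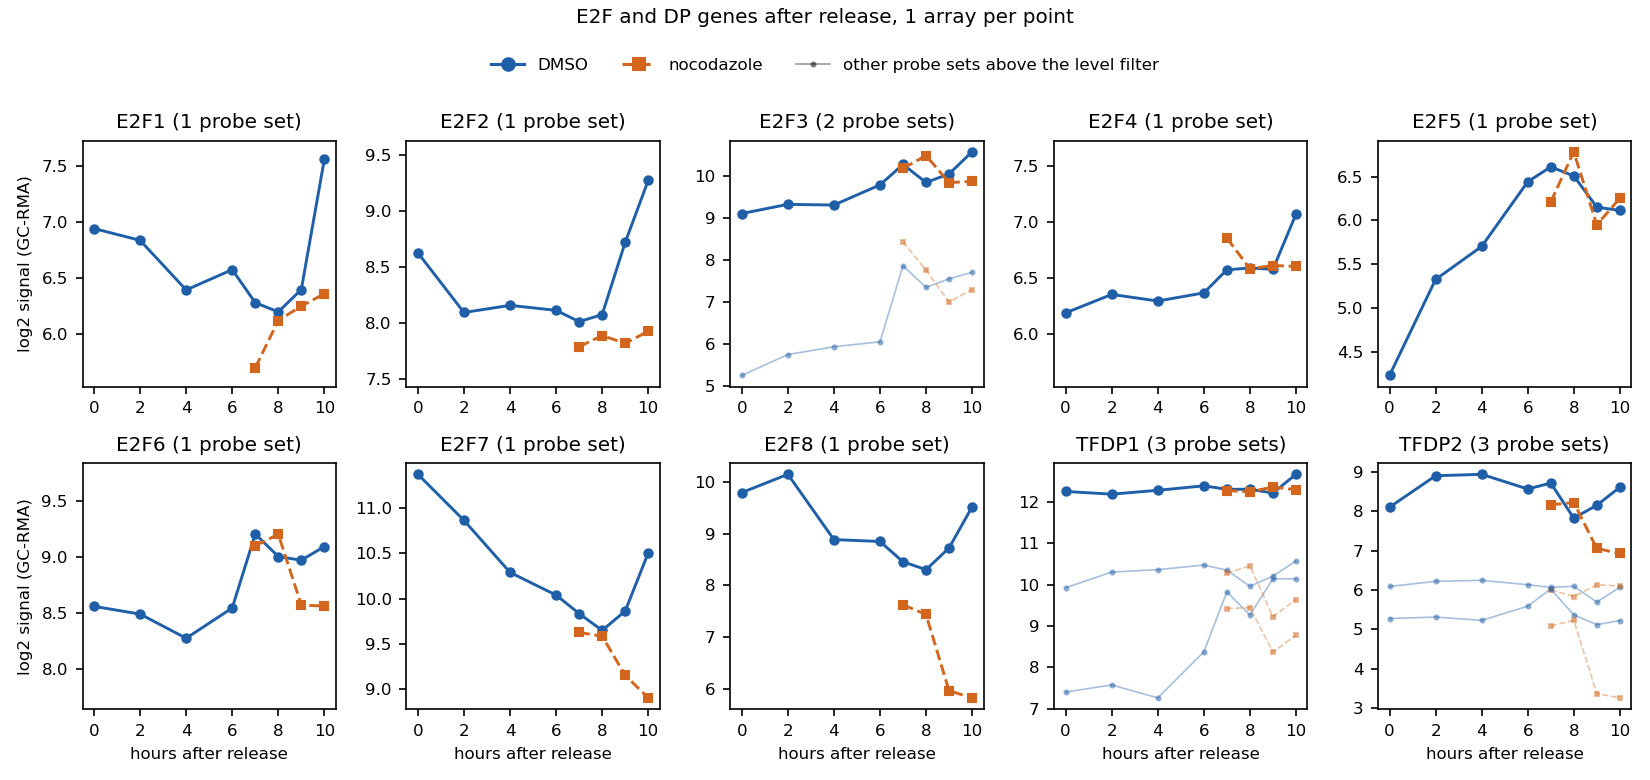
Log2 signal of each E2F and DP gene against hours after release, 1 array per point, with DMSO in blue circles and nocodazole in orange squares; thin faint lines are further probe sets of the gene above the level filter, and y axes differ between panels. With DMSO, E2F7 went from 11.37 at 0 h to 9.65 at 8 h and 10.51 at 10 h, and with nocodazole E2F8 went from 7.63 at 7 h to 5.82 at 10 h.

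Over the DMSO course the 2 atypical repressors, E2F7 and E2F8, followed a falling and returning curve, E2F2 turned up at the end, and E2F3 and E2F5 climbed. A natural spline of time (limma, F test with Benjamini-Hochberg adjustment) was past the threshold for 5 of the 10 members, against 21.8% of all genes tested. The adjusted p was 0.0030 for E2F5, 0.0038 for E2F7, 0.0195 for E2F2, 0.0196 for E2F8 and 0.0229 for E2F3. E2F1 (0.0944), E2F6 (0.0735), TFDP2 (0.121), E2F4 (0.128) and TFDP1 (0.433) did not pass. These are signals of whole cultures, in which a change in the share of cells in a phase and a change of RNA per cell cannot be told apart. By role, 2 of 3 activators, 1 of 2 pocket protein dependent repressors, both atypical repressors, 0 of 1 for E2F6 and 0 of 2 DP genes passed. After quantile normalization 7 members passed, with E2F1 (0.0259) and TFDP2 (0.0044) added, against 40.1% of all genes. E2F7 passed whichever DMSO array was left out. E2F2 did not pass without 9 h (0.0686) or 10 h (0.234), nor E2F3 without 0 h (0.110), 2 h (0.0722) or 10 h (0.0506), nor E2F5 without 0 h (0.0622), nor E2F8 without 8 h (0.0616), 9 h (0.0514) or 10 h (0.0504). E2F1 passed without the 4 h array (0.0481), and E2F6 (0.0466) and TFDP2 (0.0202) passed without the 7 h array.

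E2F1 (probe set 204947_at), the activator that was the founding member of the family, read 6.94, 6.83, 6.39, 6.57, 6.28, 6.19, 6.39 and 7.56 in the order of the DMSO hours from 0 to 10 h. The 10 h array was the highest and lay 1.16 above 9 h, while the median gene lay 0.25 above. The difference between 6 to 8 h and 0 to 4 h was -0.37 ± 0.30 (SE; 3 arrays each), with overlapping arrays, and -0.65 after quantile normalization. Between 9 to 10 h and 0 to 4 h it was 0.25 ± 0.33 on the deposited scale and -0.12 after quantile normalization, so it has no settled direction, and without the 10 h array it was -0.33. The other probe set of E2F1 read 2.33 to 3.11 on all 12 arrays.

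E2F2 (228361_at), also an activator, read 8.63, 8.09, 8.16, 8.11, 8.01, 8.07, 8.72 and 9.27 at the same hours. From 2 h to 8 h the arrays stayed within 8.01 to 8.16, and both the 9 h and the 10 h array were above every earlier one as deposited. After quantile normalization the 9 h array (8.62) was below the 0 h array (8.77). The later window lay 0.93 ± 0.23 above 6 to 8 h (unadjusted p = 0.0028, adjusted p = 0.783 in limma) and 0.70 ± 0.23 above 0 to 4 h (adjusted p = 0.0702; 0.32 and 0.285 after quantile normalization), so neither difference passed. Its 2 other probe sets stayed below 5.

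E2F3 (203693_s_at), the third activator, read 9.10, 9.32, 9.30, 9.78, 10.26, 9.84, 10.04 and 10.57 with DMSO. Every array from 6 h on was above every array up to 4 h. It was 0.72 ± 0.19 higher at 6 to 8 h than at 0 to 4 h (adjusted p = 0.0590; 0.51 and 0.0456 after quantile normalization). It was the member called at 9 to 10 h against 0 to 4 h, higher by 1.07 ± 0.21 (adjusted p = 0.0192; 0.75 and 0.0144 after quantile normalization). That call was lost without the 2 h array (1.10, adjusted p = 0.0571) or the 10 h array (0.80, adjusted p = 0.150). Its further probe set 203692_s_at read 5.25, 5.74, 5.93, 6.05, 7.86, 7.34, 7.54 and 7.70, with the step between 6 h and 7 h.

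E2F4 (202248_at), a repressor that works with RBL1 and RBL2, read 6.19, 6.35, 6.29, 6.37, 6.57, 6.59, 6.58 and 7.07 with DMSO. The 10 h array stood above the others and the remaining 7 lay within 6.19 to 6.59. The difference between 6 to 8 h and 0 to 4 h was 0.23 ± 0.17 as deposited and -0.06 after quantile normalization, so its direction depended on the scaling.

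E2F5 (221586_s_at), the other repressor of this kind, read 4.23, 5.33, 5.70, 6.44, 6.61, 6.51, 6.15 and 6.11. As deposited it climbed from the block to 7 h (after quantile normalization 6 h read 6.46, 7 h 6.28 and 8 h 6.46). Its arrays at 6 to 8 h were all above those at 0 to 4 h. It was the member called in that comparison, higher by 1.43 ± 0.33 (adjusted p = 0.0415; 1.17 and 0.0618 after quantile normalization). The call was lost without the 2 h (adjusted p = 0.109), 7 h (0.170), 8 h (0.123), 9 h (0.0786) or 10 h array (0.0787), while the difference stayed between 1.01 and 1.74 over the arrays left out. The 0 h array was below the level filter of 5. Between 0 to 4 h and 9 to 10 h the difference of E2F5 was 1.05 ± 0.37 and did not pass (adjusted p = 0.0894). It was 0.72 (adjusted p = 0.187) after quantile normalization. Without the 4 h array it passed (1.35, adjusted p = 0.0395).

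E2F6 (203957_at), which represses in a Polycomb complex, read 8.56, 8.49, 8.27, 8.55, 9.21, 9.01, 8.97 and 9.10. Its 4 arrays from 7 h on were above its 4 arrays up to 6 h. The difference between 6 to 8 h and 0 to 4 h, 0.48 ± 0.19, did not pass (adjusted p = 0.165; 0.21 and 0.346 after quantile normalization), and without the 6 h array it did (0.66, adjusted p = 0.0365).

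E2F7 (228033_at), an atypical repressor, read 11.37, 10.86, 10.29, 10.04, 9.84, 9.65, 9.86 and 10.51. As deposited, each array from 0 h to 8 h was lower than the one before (after quantile normalization 7 h read 9.58 and 8 h 9.61), and the 10 h array was 0.85 above the 8 h array, against 0.25 for the median gene. The 6 to 8 h arrays were lower than those at 0 to 4 h without overlap (difference -1.0 ± 0.28, adjusted p = 0.0692). The call was made after quantile normalization (-1.17, adjusted p = 0.0286) and without the 4 h array (-1.28, adjusted p = 0.0301).

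E2F8 (219990_at), the other atypical repressor, read 9.80, 10.16, 8.89, 8.85, 8.46, 8.31, 8.73 and 9.52. It was highest at 2 h and lowest at 8 h (at 7 h after quantile normalization, 8.13), and the 10 h array was 1.22 above the 8 h array. The 6 to 8 h arrays differed from those at 0 to 4 h by -1.08 ± 0.34 without overlap (adjusted p = 0.0984), with the call again made after quantile normalization (-1.31, adjusted p = 0.0367) and without the 4 h array (-1.44, adjusted p = 0.0308). Over the 8 DMSO arrays E2F7 and E2F8 had a Pearson r of 0.911, and E2F7 and E2F5 one of -0.932, as descriptions over arrays that share a time course.

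TFDP1 (212330_at), one of the DP genes, read 12.25, 12.18, 12.28, 12.38, 12.30, 12.30, 12.21 and 12.66 with DMSO, a range of 0.48 against 0.77 for the median gene. Its probe sets disagreed. Probe set 204147_s_at read 7.41, 7.58, 7.26, 8.38, 9.82, 9.27, 10.14 and 10.14, and was called at 6 to 8 h against 0 to 4 h (1.74, adjusted p = 0.0272) and at 9 to 10 h against 0 to 4 h (2.72, adjusted p = 0.0150). The third, 242939_at, read 9.93 at 0 h and between 9.96 and 10.57 afterwards. Whether TFDP1 changed over the course is therefore not settled by this array.

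TFDP2 (203588_s_at), the other DP gene, read 8.10, 8.90, 8.93, 8.56, 8.71, 7.82, 8.15 and 8.60. Its 2, 4, 6 and 7 h arrays were higher than its 0 h array and the 8 h array was the lowest. No window difference passed, and the sign of the 6 to 8 h difference from 0 to 4 h turned from -0.28 to 0.39 with probe set 226157_at.

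Between 0 to 4 h and 6 to 8 h, then, 1 of 10 members was called, E2F5, and 6.05% of all genes were called, 5.41% as higher. The activators had differences of -0.37, -0.23 and 0.72 and the atypical repressors of -1.0 and -1.08, with E2F4, E2F5 and E2F6 at 0.23, 1.43 and 0.48. The arrays of the 2 windows did not overlap for 2 members that were lower, E2F7 and E2F8 (9.98% of all genes), and for 4 that were higher, E2F3, E2F4, E2F5 and TFDP1 (20.8% of all genes), though E2F4 and TFDP1 overlapped after quantile normalization. After quantile normalization 3 members were called, E2F3 as higher and E2F7 and E2F8 as lower, against 9.68% of all genes. Among all calls 89.5% were higher as deposited and 52.5% after quantile normalization, while the median gene moved from 0.06 to -0.10.

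Between 6 to 8 h and 9 to 10 h no gene was called by limma (0% of all genes, 470 genes at an unadjusted p under 0.05, E2F2 among them). The differences were 0.63, 0.93 and 0.34 for E2F1, E2F2 and E2F3, 0.34 and 0.59 for E2F7 and E2F8, 0.31 for E2F4, -0.39 for E2F5, 0.11 for E2F6 and TFDP1 alike, and 0.01 for TFDP2. The 10 h array against the 8 h array gave 1.36 for E2F1, 1.20 for E2F2, 1.22 for E2F8 and 0.85 for E2F7, where E2F5 gave -0.39. Between 0 to 4 h and 9 to 10 h 1 of 10 members was called, E2F3, against 14.3% of all genes, 11.9% as higher. After quantile normalization E2F7 was called too (-0.91, adjusted p = 0.0479), against 22.8% of all genes. Of the calls over all genes 82.8% were higher as deposited and 40.1% after quantile normalization.

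**Figure D2:**
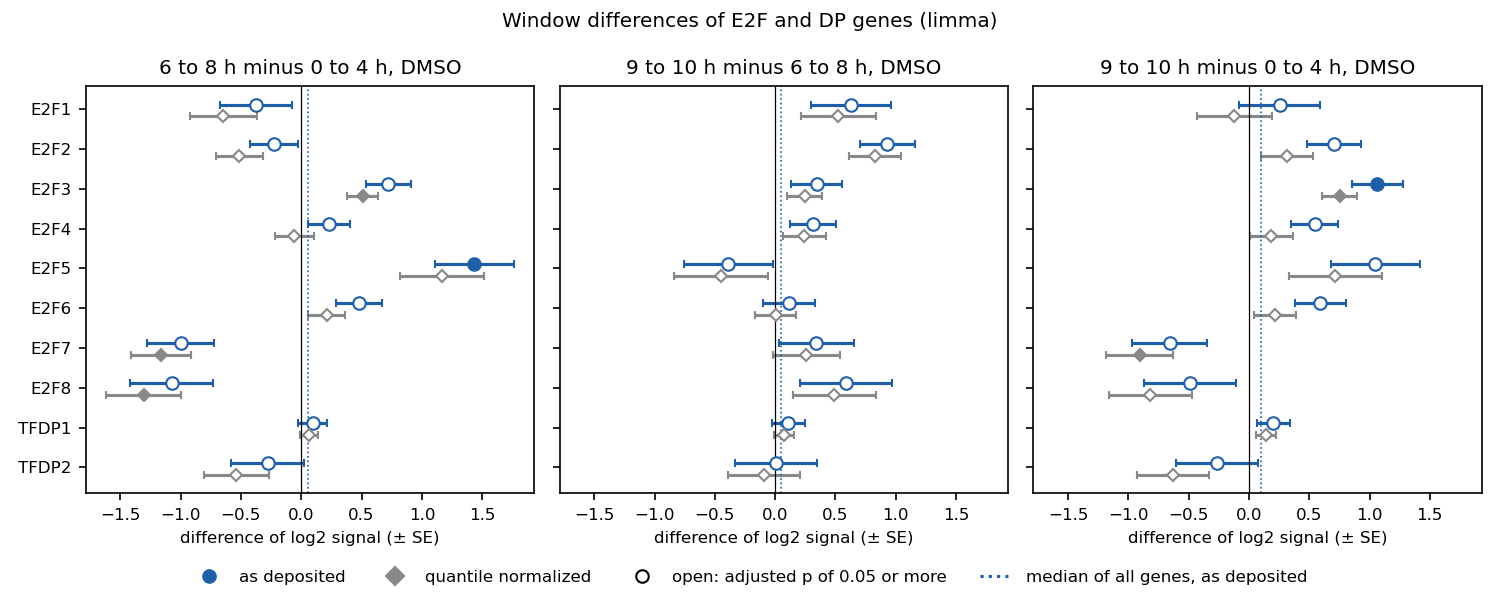
Differences of log2 signal between windows of the DMSO course with SE from limma, for each member, as deposited (blue circles) and after quantile normalization (grey diamonds); filled symbols have an adjusted p under 0.05 and the dotted line is the median gene. As deposited, E2F5 is filled in the left panel (1.43), no member in the middle one, and E2F3 in the right one (1.07).

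With nocodazole the member that differed most from DMSO at every hour was E2F8. The DMSO arrays of 7 to 10 h serve in this comparison and in those of the DMSO course, so the results are not independent. E2F8 read 7.63, 7.44, 5.96 and 5.82 at 7, 8, 9 and 10 h with nocodazole against 8.46, 8.31, 8.73 and 9.52 with DMSO. All 4 nocodazole arrays were below all 4 DMSO arrays. The differences at the 4 hours were -0.83, -0.87, -2.77 and -3.70, where the median gene had -0.09, 0.08, -0.25 and -0.61, and after quantile normalization they were -0.67, -1.07, -2.42 and -3.04. E2F8 was the member called for a change of the nocodazole difference from 7 and 8 h to 9 and 10 h, at -2.38 ± 0.39 (interaction, limma adjusted p = 0.0063; -1.86 and 0.0226 after quantile normalization), against 12.3% of all genes, 10.3% as lower. Without the 10 h arrays of both treatments it was -1.92 (adjusted p = 0.0530). Of all genes called in this test 16.2% were higher as deposited and 51.7% after quantile normalization, when 7.88% of all genes were called.

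E2F7 read 9.63, 9.59, 9.16 and 8.91 with nocodazole at these hours against 9.84, 9.65, 9.86 and 10.51 with DMSO. The 2 treatments did not overlap, and the gap was -0.21, -0.06, -0.71 and -1.60. The change of that gap, -1.02 ± 0.34, missed the threshold (adjusted p = 0.0613). It was -0.42 (adjusted p = 0.210) after quantile normalization, -0.57 without the 10 h arrays and -1.46 without the 9 h arrays. At an unmoved size it passed with a level filter of 7 (adjusted p = 0.0138) or with none (0.0357). Under both of these filters a larger share of all genes was called than the 12.3% with the filter of 5. Both atypical repressors were below their DMSO 8 h level with nocodazole at 9 and 10 h, when their DMSO arrays were above it.

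E2F2 read 7.79, 7.89, 7.82 and 7.93 with nocodazole against 8.01, 8.07, 8.72 and 9.27 with DMSO. The nocodazole arrays stayed within 7.79 to 7.93, and none reached a DMSO array of 7 to 10 h as deposited. After quantile normalization they read 7.62, 7.64, 8.17 and 8.39 against 7.66, 8.03, 8.62 and 8.90, so that the treatments overlapped. The change of the difference was -0.92 ± 0.35 (adjusted p = 0.0869) and -0.26 after quantile normalization. E2F1 read 5.69, 6.12, 6.25 and 6.36 with nocodazole against 6.28, 6.19, 6.39 and 7.56. It lay below DMSO at each hour, with differences of -0.58, -0.08, -0.15 and -1.20, but after quantile normalization it was above DMSO at 9 h (0.22).

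E2F3 read 10.17, 10.48, 9.84 and 9.86 with nocodazole against 10.26, 9.84, 10.04 and 10.57 with DMSO, above DMSO at 8 h and below it at the other hours. E2F6 read 9.10, 9.21, 8.57 and 8.56 against 9.21, 9.01, 8.97 and 9.10. E2F4 read 6.86, 6.58, 6.61 and 6.60 against 6.57, 6.59, 6.58 and 7.07. E2F5 read 6.21, 6.78, 5.95 and 6.25 against 6.61, 6.51, 6.15 and 6.11. The treatments overlapped in these 4 genes, and the mean differences of -0.09, -0.21, -0.04 and -0.05 all turned positive after quantile normalization (0.19 for E2F3, 0.10 for E2F6, 0.23 for E2F4 and 0.20 for E2F5).

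TFDP1 read 12.27, 12.24, 12.36 and 12.29 with nocodazole against 12.30, 12.30, 12.21 and 12.66 with DMSO. Probe sets 204147_s_at (9.42, 9.45, 8.37 and 8.78 with nocodazole) and 242939_at (10.28, 10.45, 9.22 and 9.64) of TFDP1 were lower at 9 and 10 h. As deposited both were called for a change of the difference (-1.45 and -1.17, adjusted p = 0.0184 and 0.0248), unlike the representative one (-0.07). The median gene changed by -0.44 there, and these probe sets were not tested after quantile normalization. Then 204147_s_at read 8.73 and 9.23 at 9 and 10 h with nocodazole against 10.08 and 9.80 with DMSO. For 242939_at the normalized values were 9.55 and 10.05 against 10.16 and 10.24. TFDP2 read 8.16, 8.22, 7.05 and 6.93 against 8.71, 7.82, 8.15 and 8.60, higher than DMSO at 8 h and lower at 9 and 10 h. Its change of difference was -1.31 ± 0.40 (adjusted p = 0.0512) and -0.68 (0.167) after quantile normalization. Probe set 226157_at of TFDP2 gave -1.32 (adjusted p = 0.0351), reading 3.37 and 3.26 with nocodazole at 9 and 10 h, under the level filter, and 203589_s_at gave 0.40. With the mean of the TFDP2 probe sets the change was -0.74 (adjusted p = 0.138). With the representative probe set it was -0.84 without the 8 h arrays, -1.02 without 10 h, -1.78 without 7 h and -1.60 without 9 h. It passed with a level filter of 7 (adjusted p = 0.0116) or with none (0.0270). There too a larger share of all genes was called than the 12.3% with the filter of 5.

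**Figure D3:**
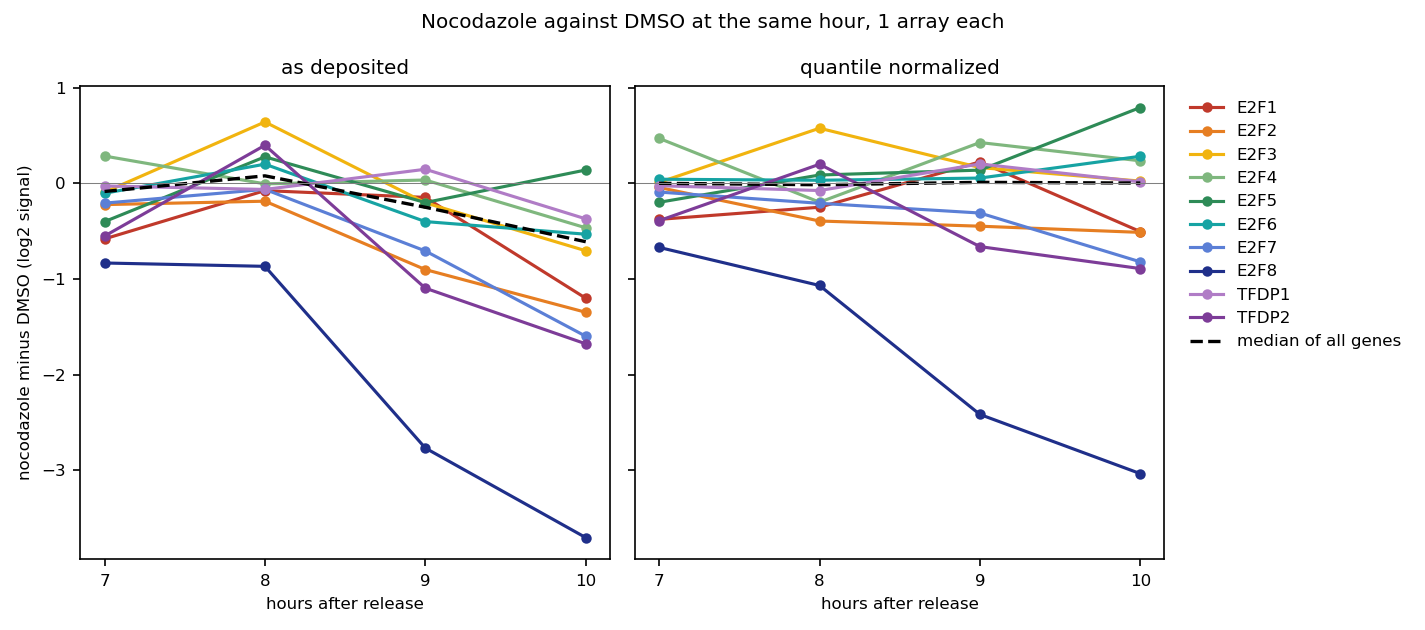
Log2 signal with nocodazole minus log2 signal with DMSO at the same hour for each member, 1 array per treatment and hour, as deposited (left) and after quantile normalization (right); the dashed line is the median of all genes tested. E2F8 lies lowest at every hour in both panels, reaching -3.70 and -3.04 at 10 h.

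Over 7 to 10 h with time as a block, no gene was called by limma (0% of all genes, 953 genes at an unadjusted p under 0.05, E2F2 and E2F8 among them). The mean difference was -2.04 ± 0.50 for E2F8, -0.73 ± 0.34 for TFDP2, -0.67 ± 0.25 for E2F2, -0.64 ± 0.27 for E2F7 and -0.50 ± 0.25 for E2F1, with an all-gene median of -0.22 that went to -0.0030 after quantile normalization. The members then had -1.80 (E2F8), -0.44 (TFDP2), -0.35 (E2F2), -0.36 (E2F7) and -0.23 (E2F1). As deposited E2F2, E2F7 and E2F8 were lower without overlap, as were 7.16% of all genes, and after quantile normalization E2F2 overlapped. Without the 8 h arrays E2F8 (-2.43, adjusted p = 0.0343) and TFDP2 (-1.11, adjusted p = 0.0482) passed. At 9 and 10 h alone 5 members were called lower, E2F1 (-0.68), E2F2 (-1.13), E2F7 (-1.15), E2F8 (-3.24) and TFDP2 (-1.39), against 32.3% of all genes. After quantile normalization 3 were called lower, E2F7 (-0.57), E2F8 (-2.73) and TFDP2 (-0.78), against 16.2%. These fits of 4 arrays rest mostly on the spread shared between genes. At 7 and 8 h alone no member was called as deposited, and E2F8 was called after quantile normalization (-0.87, adjusted p = 0.0433).

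Genes around the family were described by lists and set beside the median gene, with no test of a list. Of 36 G1/S genes with known E2F sites, the textbook targets, 33 were tested. Over the DMSO course 24 of the 33 passed the spline test, against 21.8% of all genes. After quantile normalization 27 passed, against 40.1%. Between 0 to 4 h and 6 to 8 h 2 were lower, CCNE2, the cyclin E2 gene (-2.38), and PCNA, the sliding clamp (-0.55), where 6.05% of all genes were called, and the list median was -0.28 against 0.06 for all genes. After quantile normalization 9 of the 33 were called lower, where 9.68% of all genes were called, with a median of -0.38 against -0.10. Between 0 to 4 h and 9 to 10 h ORC1 (1.29), an origin recognition subunit, GINS2 (0.71), a helicase subunit, and CHAF1A (0.70), a histone chaperone subunit, were higher and PCNA was lower (-0.53). These are 4 calls of 33, where 14.3% of all genes were called. After quantile normalization 3 were higher and 6 lower, where 22.8% of all genes were called. MCM3 was then called higher (0.48) and CHAF1A no longer called (0.46). RRM1 (-0.63), MCM4 (-0.34), CDC45 (-1.03), BRCA1 (-0.54) and FBXO5 (-0.93) were called lower beside PCNA. In the nocodazole test all 33 had negative differences as deposited, and none passed. Their median was -0.57, where that of all genes was itself negative at -0.22. The largest differences were those of CCNE2 (-4.91) and ORC1 (-2.12). After quantile normalization the list median was -0.40 against -0.0030 for all genes, again with none called. The change of the difference was called lower for 13 of the 33, where 10.3% of all genes were, among them CCNE2 (-4.23), ORC1 (-3.57), POLA1 (-2.14), the catalytic subunit of DNA polymerase alpha, and FBXO5 (-2.51), an inhibitor of the anaphase promoting complex, the last without a call after quantile normalization (-1.91). The list median was -0.75 against -0.44. After quantile normalization 10 of the 33 were called lower, where 7.88% of all genes were called, with a median of -0.38 against 0.0082. CCNE2 read 12.18 at 0 h, 8.78 at 7 h and 10.83 at 10 h with DMSO, and 5.96, 6.55, 3.26 and 3.83 with nocodazole, with the last 2 under the level filter. With nocodazole at 9 and 10 h ORC1 read 3.12 and 5.92, and POLA1 read 4.91 and 4.52. ORC1 at 9 h and POLA1 at both hours were thus under the filter too, so the sizes of these changes lean on values near the floor.

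Of the pocket proteins and the MuvB complex with its partners, 9 of 10 were tested. RB1, the retinoblastoma gene, was lower at 6 to 8 h (-0.57) and at 9 to 10 h (-0.88) than at 0 to 4 h, and RBL1, encoding the pocket protein p107, was lower at 9 to 10 h (-1.64). After quantile normalization 2 of the 9 were lower at 6 to 8 h, with MYBL2 (-0.61) added, and 5 at 9 to 10 h, with RBL2 (-0.60), LIN37 (-1.05) and RBBP4 (-0.48) added. At 6 to 8 h 6.05% of all genes were called as deposited and 9.68% after quantile normalization. At 9 to 10 h the shares were 14.3% and 22.8%. No member of the list passed the nocodazole test. As deposited none passed the test of its change, and after quantile normalization RBL2 was called higher (0.97, adjusted p = 0.0389), where 7.88% of all genes were called. Of the cyclins, kinases and inhibitors upstream of RB1, 12 of 15 were tested. CCND1, the cyclin D1 gene, was higher at 6 to 8 h (0.73), and CCNE2, CDK2 (-0.75) and CDKN1A (-1.08), the gene of the inhibitor p21, were lower. CCND1 (0.84), CDK2 (-0.70) and CDKN1A (-1.01) kept these directions and calls at 9 to 10 h. These are 4 calls of the 12 at 6 to 8 h and 3 at 9 to 10 h. After quantile normalization CCND3 was called lower too in both windows (-0.68 and -0.60), and CDKN1B, the gene of the inhibitor p27, at 9 to 10 h (-1.58). CCND3 (-1.17) and CCNE1 (-1.10) joined CCNE2 among calls for a change of the nocodazole difference, 3 of 12 where 12.3% of all genes were called, and CCNE1 was not called after quantile normalization (-0.53, adjusted p = 0.0927).

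Of the 4 genes that act on E2F turnover, CCNF, encoding cyclin F, was higher at 6 to 8 h than at 0 to 4 h (0.98), and SKP2, a ubiquitin ligase subunit, was called for a change of the nocodazole difference (-1.40), with CCNA2, the cyclin A2 gene, called higher as well after quantile normalization (0.61). Of the E2F6 complex partners 8 of 10 were tested. MGA, a DNA-binding scaffold of that complex, was higher at 6 to 8 h (1.86) and at 9 to 10 h (2.04) than at 0 to 4 h, and WDR5 was higher at 9 to 10 h (1.16), with CBX3 added after quantile normalization (0.33). Of the 8 apoptosis genes described as E2F1 targets 5 were tested. TP73, a p53 relative, was lower in both later windows (-0.98 and -0.97), PMAIP1 at 9 to 10 h (-1.38), and CASP8 was higher in both (0.69 and 0.74), the second without a call after quantile normalization (0.40). APAF1 was called after quantile normalization alone, lower at 9 to 10 h (-1.25) and higher for the change of the nocodazole difference (1.24). At 9 to 10 h as deposited these are 2 calls of 8 E2F6 partners and 3 of 5 apoptosis genes, where 14.3% of all genes were called. The share of all genes was 6.05% at 6 to 8 h and 12.3% for the change of the nocodazole difference. After quantile normalization the shares were 9.68% at 6 to 8 h, 22.8% at 9 to 10 h and 7.88% for that change.

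**Figure D4:**
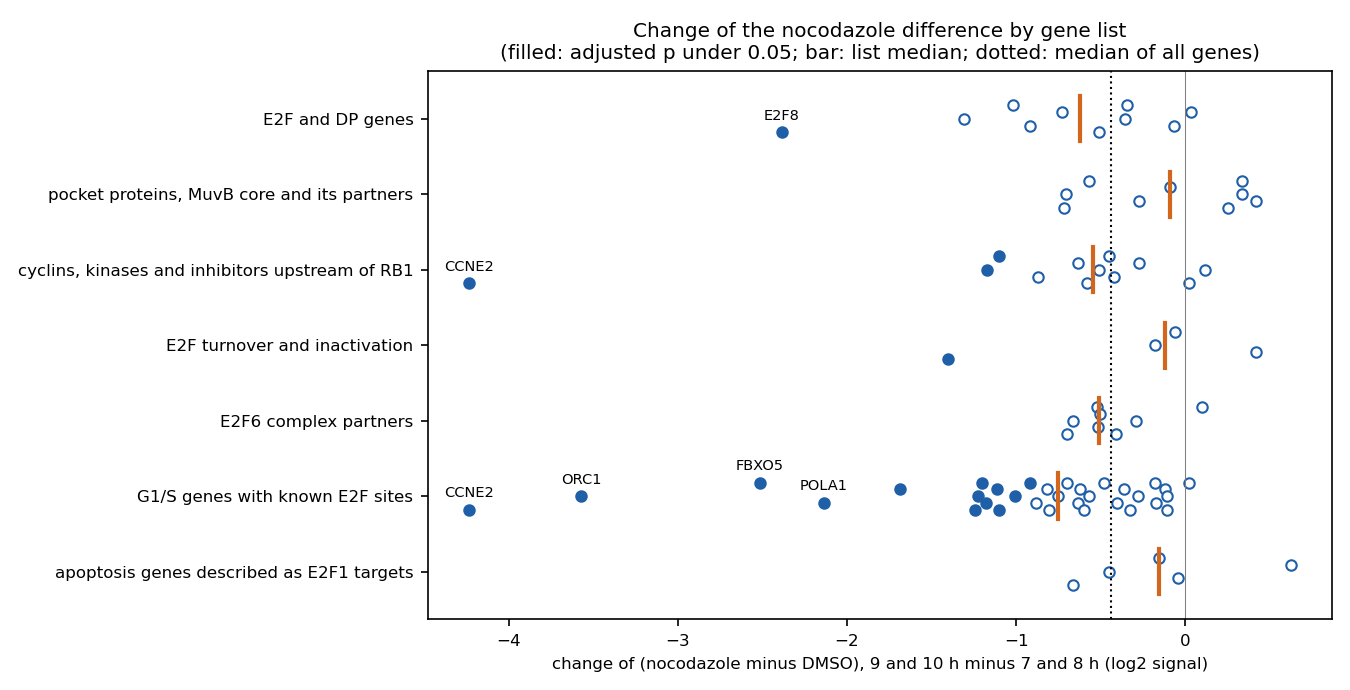
Change of the nocodazole minus DMSO difference from 7 and 8 h to 9 and 10 h, 1 point per gene and 1 row per list; filled points have an adjusted p under 0.05 in limma, the vertical bar is the list median and the dotted line the median of all genes tested. E2F8 at -2.38 is the filled member of the E2F and DP genes, and CCNE2 at -4.23 lies lowest of the genes shown.

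The genes most like each member were found by Pearson's r over the 12 arrays among all genes tested, as a description. For E2F7 they were DSCC1 (0.986), a subunit of a clamp loader, GADD45A (0.981) and NUP43 (0.981). For E2F8 they were DONSON (0.980), a replication fork protein, FAM171B (0.980) and HLTF (0.979). The first for E2F3 was ORC2 (0.982), an origin recognition subunit, for E2F6 AAR2 (0.977), for E2F4 FSCN1 (0.968), for TFDP2 GRIPAP1 (0.966), for E2F5 NDE1 (0.964), for E2F1 HNRNPAB (0.954), for TFDP1 ITGAE (0.945) and for E2F2 NANP (0.922). Over the 8 DMSO arrays the first 3 for E2F2 were PHF14 (0.962), DCTN5 (0.956) and GINS2 (0.955). For the others the first were EIF3D for E2F1 (0.9825), GAK for E2F3 (0.9945), PRRC2A for E2F4 (0.99) and AIRIM for E2F5 (0.989). They were HERC1 for E2F6 (0.989), DCBLD1 for E2F7 (0.985), RMI2 for E2F8 (0.971), EFCAB14 for TFDP1 (0.9755) and PKIG for TFDP2 (0.954). Between members over the 12 arrays r was 0.916 for E2F7 and E2F8, 0.824 for E2F1 and E2F2, 0.839 for E2F3 and E2F4 and -0.745 for E2F5 and E2F7. All arrays share the release and differ in time, so such values are high for many pairs of genes.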

How the data were processed

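HCT116 gene expression was measured on 12 U133 Plus 2.0 arrays, 8 with DMSO and 4 with nocodazole. The authors made the values with GC-RMA, whose version is not given in the sources used here, and deposited 1 log2 signal for each probe set and array. That the logarithm has base 2 is inferred from the range of values, and a quantile step before deposit can neither be shown nor excluded from them. All 12 columns were used, with 0 columns of other samples. Across array pairs Pearson's r was 0.938 to 0.995, and the number of arrays limits the precision.

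Probe sets were joined to symbols through the platform annotation: 41097 had 1 symbol, 1801 several and 11777 none. Those with 1 symbol and at least 5 on 2 arrays were kept (15030), and the one with the highest mean represented a gene, giving 9130 genes. limma 3.58.1 in R 4.3.3 was run with an intensity trend, and calls were made at 0.05 after Benjamini-Hochberg adjustment across all genes: a spline with 3 degrees of freedom, window means, and nocodazole against DMSO with hour as a block and as an interaction. The fits were run on simulated arrays with independent noise around a flat mean and changes put into some genes. Apart from those changes, the simulated arrays had no trend over hours and no shift of array medians. They therefore do not show whether the calls hold on the real arrays. Alternatives were quantile normalization, other filters, probe sets, curves and blocks, and each hour left out. Named genes were all 10 members, up to 4 called genes of each list by p (or 2 of largest difference), the genes of highest r and the markers. The members and lists were chosen with earlier results of these data known. Promoters came from RefSeq (GRCh38.p14).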

Additional observations from a re-analysis of the deposited data

Results flagged for a closer look

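The nocodazole difference of E2F8 was not the same at the earlier and the later hours. It changed by -2.38 on the log2 scale from 7 and 8 h to 9 and 10 h (limma interaction, adjusted p = 0.0063), with -0.83 and -0.87 at the first 2 hours and -2.77 and -3.70 at the last 2. The difference was negative at all 4 hours. The array medians with nocodazole were also lower at 9 h (8.39) and 10 h (8.28), and after quantile normalization the change of E2F8 was -1.86 (adjusted p = 0.0226).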

How the results depend on the processing

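Of 772 values of single members under alternatives, 656 kept direction and side of the threshold, 20 lost a call, 50 gained one and 46 changed sign. Values of the DMSO course, whose F test has no direction, were judged by the threshold alone. Some of the 656 could not have changed direction. Other filters, no intensity trend and no time block left each member's difference as it was, and so did leaving out an hour outside the windows compared. The cause of the changes was not tested except where fewer genes or arrays entered. The counts of genes below are out of 9130 tested, but out of 7712 with a filter at 7 and 19775 with no filter. With a filter at 7 the members E2F1, E2F4 and E2F5 were not tested. Counts of members are to be read beside these shares of all genes. The count of members called over the course was 2 to 7 with 1 hour left out (2 without 10 h, 3 without 0 or 9 h), and that of genes 862 to 2220 (862 without 0 h, 1083 without 2 h, 1323 without 8 h, 1239 without 9 h), against 3665 after quantile normalization. For 6 to 8 h against 0 to 4 h, members called were 2 with a filter at 7, 2 with the mean of probe sets, 0 with no filter, 3 after quantile normalization and 0 to 3 with an hour left out, and genes called 65 with no filter, 884 after quantile normalization and 0 to 1266 with an hour left out (0 without 2, 7 or 8 h, 1266 without 6 h). For 9 to 10 h against 6 to 8 h genes called were 0 to 1 with an hour left out. For 9 to 10 h against 0 to 4 h, members called were 2 with the mean of probe sets, 2 after quantile normalization and 0 to 2 with an hour left out, and genes called 557 with no filter, 2083 after quantile normalization and 0 to 1647 with an hour left out (0 without 2 or 10 h).

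For nocodazole against DMSO, members called were 5 at 9 and 10 h alone, 3 at these hours and 1 at 7 and 8 h after quantile normalization (both chosen after seeing the data) and 0 to 2 with an hour left out. Genes called were 3364 and 2982 at 9 and 10 h alone as deposited and after quantile normalization, 25 and 106 at 7 and 8 h, 11 with a filter at 7, 8 with no time block, 36 after quantile normalization and 0 to 401 with an hour left out (401 without 8 h). For the change of the difference, members called were 3 with a filter at 7, 3 with the mean of probe sets, 4 with no filter and 0 to 4 with an hour left out, and genes called 1742, 1714 and 10073 under those 3 settings, 719 after quantile normalization and 297 (without 10 h) to 4046 (without 9 h) with an hour left out, 456 without 8 h among them.

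Signs turned as follows. After quantile normalization the 6 to 8 h difference from 0 to 4 h was -0.057 for E2F4, that of 9 to 10 h from 6 to 8 h -0.090 for TFDP2 and that from 0 to 4 h -0.12 for E2F1. The nocodazole difference was then 0.19 for E2F3, 0.23 for E2F4, 0.20 for E2F5, 0.10 for E2F6 and 0.028 for TFDP1, and its change 0.17 for E2F1, 0.19 for E2F4, 0.13 for E2F6 and 0.16 for TFDP1. At 7 and 8 h alone it was 0.27 for E2F3, 0.14 for E2F4 and 0.047 for E2F6, and after quantile normalization 0.29, 0.14 and 0.036. At 9 and 10 h after quantile normalization it was 0.093 for E2F3, 0.33 for E2F4, 0.46 for E2F5, 0.17 for E2F6 and 0.11 for TFDP1. With other probe sets it was 0.0024 for E2F3 (203692_s_at) and 0.039 for TFDP2 (203589_s_at), and its change 0.40 for TFDP2 (203589_s_at). TFDP2 gave 0.0079 (mean of probe sets) and 0.39 (226157_at) at 6 to 8 h against 0 to 4 h, and -0.23 (mean), -0.22 (203589_s_at) and -0.49 (226157_at) at 9 to 10 h against 6 to 8 h.

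With an hour left out, 9 to 10 h against 6 to 8 h ran from -0.073 to 0.26 for E2F6, -0.12 to 0.33 for TFDP1 and -0.26 to 0.24 for TFDP2, and against 0 to 4 h from -0.33 to 0.84 for E2F1 and -0.025 to 0.43 for TFDP1. The nocodazole difference ran from -0.33 to 0.11 for E2F3, -0.15 to 0.10 for E2F4, -0.16 to 0.071 for E2F5 and -0.16 to 0.017 for TFDP1, and its change from -0.87 to 0.18 for E2F1, -0.31 to 0.37 for E2F5 and -0.33 to 0.19 for TFDP1. A spline with 2 degrees of freedom lost E2F8 (adjusted p = 0.0627). Member probe sets under the level filter were not tried as alternatives, since the filter was kept. Those above it were tried on the deposited values alone. The nocodazole and DMSO arrays were paired by hour in every test between them, and without that block 0 members and 8 genes were called.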
